A study of Homo sapiens with 2 samples.

Results

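PGC, SLPI, NMU, PHGR1, TM4SF1, S100P and PRSS1 are 7 genes grouped here as secreted or glandular epithelial genes, and they were compared between ebastine-treated and vehicle-treated C4-2 cells. They are 7 of the 1947 genes in the deposited table of gene levels. The genes were chosen by their measured ratio between these same libraries, and by that grouping, so the ratios below describe the genes and test nothing. C4-2 is a long-established line of human prostate cancer cells that descends from LNCaP and expresses the androgen receptor. Ebastine is a histamine H1 receptor antagonist taken against allergy, and the series title presents it as an inhibitor of the histone methyltransferase EZH2. One library came from cells given ebastine and one from cells given vehicle. Both were polyadenylated RNA of the same line at passage 10 to 15, grown in medium with fetal bovine serum, and neither the dose nor the length of exposure is stated in the sources used here.

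With 1 library per group there is no spread between replicates, no test of the treatment was made, and every difference below is one between 2 libraries. Levels are FPKM (fragments per kilobase of transcript, scaled to library size), a unit that already divides by transcript length. The median level of the listed genes was 9.49 FPKM in the ebastine library and 10.5 FPKM in the vehicle library, and the sequencing depth is unknown because the table gives no counts. The table holds the genes whose p-value in the authors' deposited table was under 0.05, which is 14.2% of the 13714 genes that the deposited q-values imply were tested. A gene outside the table has no value here. Of 10 prostate luminal markers 5 were listed, 2 higher and 3 lower with ebastine as deposited. After centring of the libraries on the median ratio, 3 were higher and 2 lower. That median comes from listed genes alone, so centring cannot measure a difference in library scale. Of all listed genes, 867 were higher and 1080 lower with ebastine. KLK3 (prostate-specific antigen) stood at 1599 FPKM with ebastine and 2476 FPKM with vehicle, whereas FOLH1 (prostate-specific membrane antigen) stood at 840.4 FPKM with ebastine and 494.9 FPKM with vehicle, and the acid phosphatase gene ACPP at 5.55 FPKM with ebastine and 2.21 FPKM with vehicle. None of 3 basal, 3 leukocyte or 6 gastric and pancreatic markers was listed, so their levels are not known here.

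Secretory epithelia line glands and mucosa and release enzymes, enzyme precursors, inhibitors and peptides into a lumen. Proteases leave such cells as inactive zymogens, and inhibitors released beside them limit damage to the tissue. The prostate is such a gland, and its luminal cells secrete kallikrein proteases and acid phosphatase under androgen control. The grouping name does not describe all 7 genes: NMU encodes a neuropeptide, TM4SF1 is a membrane protein also found on endothelial cells, S100P is a calcium-binding protein found mainly inside cells, and the function of PHGR1 is little known.

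The core promoters of PGC and TM4SF1, lower with ebastine, and of S100P and PRSS1, higher with ebastine, are shown to compare the DNA at their starts. RefSeq promoters were matched for 5 of the 7 genes. Each line runs 5′ to 3′ on the gene's own strand from 60 bases before the annotated start through the first 10 transcribed bases, in build GRCh38.p14, with the letters TATAAA in capitals where they occur.
PGC, chr6:41747388-41747457, minus strand: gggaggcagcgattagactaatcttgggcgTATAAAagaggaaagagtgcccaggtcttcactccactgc
TM4SF1, chr3:149377640-149377709, minus strand: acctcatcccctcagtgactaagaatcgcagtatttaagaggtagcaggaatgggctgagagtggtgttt
S100P, chr4:6693818-6693887, plus strand: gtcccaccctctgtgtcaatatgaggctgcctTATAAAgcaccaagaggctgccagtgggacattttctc
PRSS1, chr7:142749412-142749481, plus strand: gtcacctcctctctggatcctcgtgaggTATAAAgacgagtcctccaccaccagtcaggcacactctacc

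The TATAAA letters, the core of the TATA box that can position the start of transcription, began at position -30 in PGC, -28 in S100P and -32 in PRSS1, counted from the annotated start. Of the 5 genes with a matched promoter, 3 were lower with ebastine, and the motif occurred in 1 of these 3 and in both that were higher. SLPI and PHGR1, both lower with ebastine, were not part of this count. Only the exact letters TATAAA were searched for, so variants such as the tatttaa in the TM4SF1 line were not counted. On the sense strand, with the first base 40 to 20 bases before the start, TATAAA occurred in 3.64% of 15842 protein-coding promoters of the table and in 3 of the 5 matched here. Over the whole 300 bases and both strands it occurred in 9.63% of promoters and in the same number of the matched genes. CCAAT, on either strand, occurred in 36.4% of promoters and in 1 of the 5, TM4SF1. TGANTCA, the letters bound by AP-1 factors, occurred in 5.75% of promoters and in PRSS1. The motifs do not overlap one another in these windows. GC content of the 5 promoters ran from 47.3% in NMU to 56.0% in S100P, against a median of 62.7% over the protein-coding promoters, and they held 4 to 9 CpG dinucleotides against a median of 22.

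Of the 7 genes, 5 stood at least 2-fold lower and 2 at least 2-fold higher in the ebastine library. Ratios are log2((FPKM in ebastine + 1)/(FPKM in vehicle + 1)), which understates the change of low genes. Among the 1768 listed genes that averaged 1 FPKM or more over both libraries, 4.86% were at least 2-fold lower and 1.81% at least 2-fold higher. In RNA from whole cultures, fewer cells that express a gene and less RNA per cell cannot be told apart. Nothing is read from the difference between these shares and the counts among the 7 genes, since the same ratio chose the genes. Counted from the lowest ratio of the 1768, PGC was at place 3, PHGR1 at 5, SLPI at 8, TM4SF1 at 10 and NMU at 14. Counted from the highest, PRSS1 was at place 7 and S100P at 21. The next gene after NMU in the order from the lowest was DLGAP5 at a log2 ratio of -1.38, and the next after S100P in the order from the highest was FGF13 at 1.08.

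**Figure D1:**
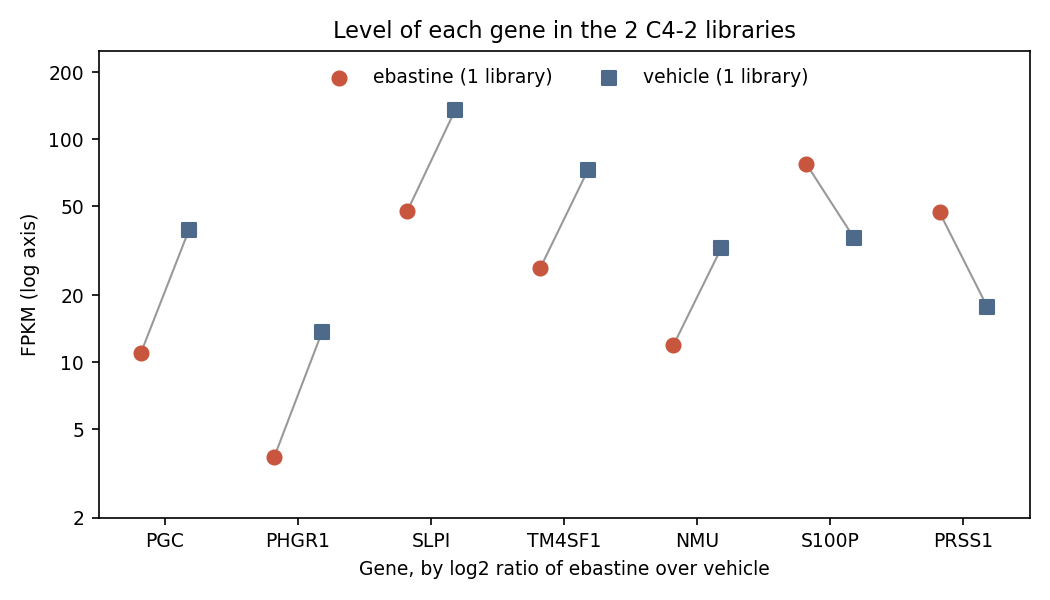
Level of each gene in FPKM on a log axis, with the ebastine library as a circle on the left and the vehicle library as a square on the right, 1 library each and no error. The circle is below the square for PGC, PHGR1, SLPI, TM4SF1 and NMU and above it for S100P (77.5 against 35.9 FPKM) and PRSS1 (47.05 against 17.7 FPKM).

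The digestive zymogens PGC and PRSS1 differed in opposite directions. PGC encodes pepsinogen C, the precursor of an aspartic protease of the stomach that is also found in seminal fluid, and lies on chromosome 6, 41704449 to 41715139 (hg19). It stood at 11.02 FPKM in the ebastine library and 39.2 FPKM in the vehicle library, a log2 ratio of -1.74. Without the pseudocount this was a 3.55-fold lower level. PRSS1 encodes cationic trypsinogen, the precursor of a trypsin of the pancreas. It stood at 47.05 FPKM with ebastine and 17.7 FPKM with vehicle, a log2 ratio of 1.36. PRSS1 was thus above PGC in the ebastine library and below it in the vehicle library.

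The value of PRSS1 is less certain than the others. The locus printed for it, chromosome 7, 142000776 to 142500213 (hg19), spans 499 kb, whereas the gene spans 3.61 kb in GENCODE release 29 (GRCh38). The gene lies within the T cell receptor beta region, near the related trypsinogen gene PRSS2. Of the 754 windows of 50 bases in the longest coding PRSS1 transcript, 35 (4.64%) occurred exactly in transcripts of PRSS2 or PRSS3P1, and how reads from such stretches were counted is not stated. For the other 6 genes no window was shared with a transcript of another gene. Neither PRSS2 nor PRSS3 was among the listed genes.

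SLPI, the secreted inhibitor of neutrophil elastase and related serine proteases, had the highest level of the 7 genes in the vehicle library. It lies on chromosome 20, 43880879 to 43883206 (hg19), and stood at 47.5 FPKM with ebastine and 135 FPKM with vehicle. The log2 ratio was -1.49, and the level without the pseudocount was 2.84-fold lower. SLPI also showed the largest absolute difference among the 7 genes, -87.6 FPKM for ebastine minus vehicle. Its level was 1.01 times that of PRSS1 in the ebastine library and 7.65 times that of PRSS1 in the vehicle library.

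NMU encodes neuromedin U, a peptide that contracts smooth muscle and acts in the control of feeding through its own G protein-coupled receptors. It lies on chromosome 4, 56461398 to 56502465 (hg19), and stood at 11.9 FPKM with ebastine and 32.5 FPKM with vehicle, a log2 ratio of -1.38. Its receptors NMUR1 and NMUR2 were not among the listed genes. PHGR1, a short protein rich in proline, histidine and glycine that is expressed in gut epithelium, was the lowest of the 7 genes in both libraries. It lies on chromosome 15, 40643234 to 40648634 (hg19), and stood at 3.74 FPKM with ebastine and 13.6 FPKM with vehicle. Its log2 ratio of -1.63 was smaller in size than that of PGC with the pseudocount, but without it PHGR1 had the larger ratio, 3.65-fold. Its longest coding transcript in GENCODE is 436 bases, the shortest of the 7, and short transcripts receive fewer fragments at a given FPKM.

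TM4SF1 encodes a membrane protein of the L6 family found on endothelial and many tumour cells, where it takes part in cell migration. It lies on chromosome 3, 149086805 to 149095568 (hg19), and stood at 26.5 FPKM with ebastine and 73.2 FPKM with vehicle, a log2 ratio of -1.43. S100P, an EF-hand protein that binds calcium, ezrin and the receptor RAGE, lies on chromosome 4, 6695566 to 6698897 (hg19). It stood at 77.5 FPKM with ebastine and 35.9 FPKM with vehicle, a log2 ratio of 1.09. S100P was the most abundant of the 7 genes in the ebastine library and the fourth in the vehicle library.

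In the authors' deposited table, 6 of the 7 genes had the smallest p-value printed, 5e-05, which 385 listed genes shared. PHGR1 had a deposited p-value of 0.0002 and a q-value of 0.00595 in the authors' deposited table, and the q-value of the other 6 was 0.00178. Of all listed genes, 41.0% passed a q-value of 0.05 in the authors' deposited table. Those tests were made on 1 library per group and compare these libraries, not the treatments.

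**Figure D2:**
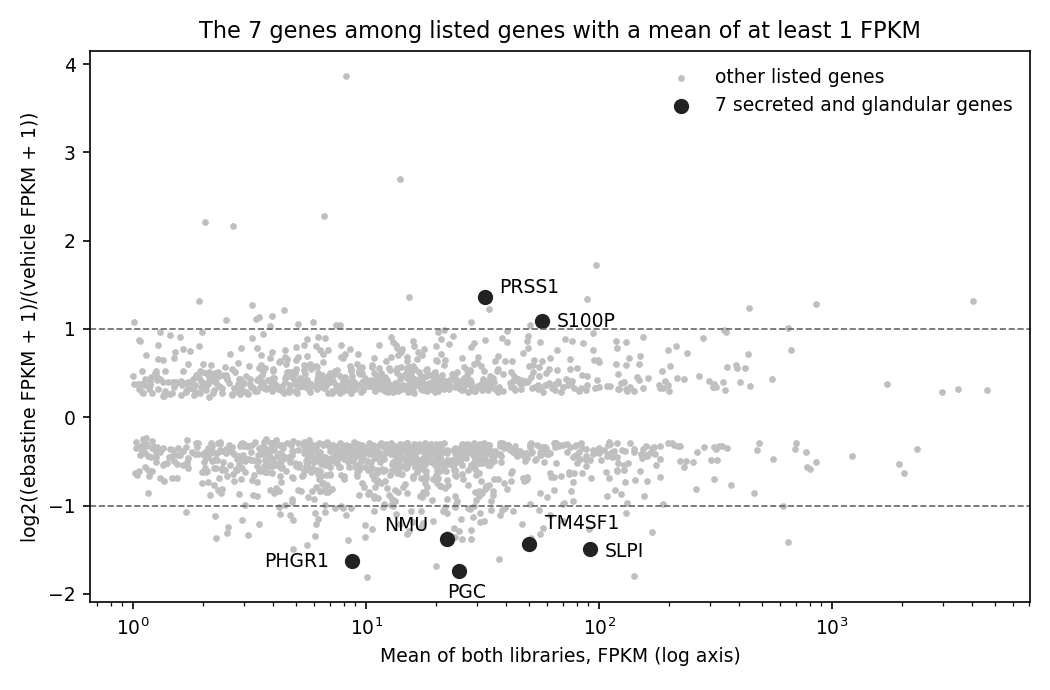
Log2 ratio of ebastine over vehicle against the mean level of both libraries in FPKM (log axis) for the 1768 listed genes averaging 1 FPKM or more, with the 7 genes as large points and dashed lines at a 2-fold difference. The empty band around 0 is where the authors' p-value limit removed genes, and the 7 genes lie outside the dashed lines at means of 8.69 FPKM (PHGR1) to 91.3 FPKM (SLPI).

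The order of the 7 levels differed between the libraries. From high to low it was S100P, SLPI, PRSS1, TM4SF1, NMU, PGC and PHGR1 in the ebastine library, and SLPI, TM4SF1, PGC, S100P, NMU, PRSS1 and PHGR1 in the vehicle library. Some neighbours in this order were close: with ebastine SLPI was 1.01 times PRSS1 and NMU 1.08 times PGC, and with vehicle PGC was 1.09 times S100P and S100P 1.1 times NMU. Without replicates it is not known which of these steps exceed the spread between cultures. The highest of the 7 levels was 20.7 times the lowest in the ebastine library and 9.91 times the lowest in the vehicle library.

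The 5 lower genes together summed to 100.6 FPKM with ebastine and 293.6 FPKM with vehicle, and their log2 ratios ran from -1.74 to -1.38. SLPI made up 47.2% of that sum with ebastine and 46.0% with vehicle. S100P and PRSS1 together summed to 124.5 FPKM with ebastine and 53.6 FPKM with vehicle. They made up 55.3% of the summed level of all 7 genes in the ebastine library and 15.4% in the vehicle library. Set among the 1768 listed genes, the level of PGC was above 48.7% of them with ebastine and above 78.3% with vehicle, and that of PRSS1 was above 82.6% with ebastine and 59.4% with vehicle.

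All 7 genes stayed past 2-fold under the 5 other pseudocounts and scalings tried. None of these settings turned a direction, and none could have. A pseudocount leaves the direction as it is, and the largest rescaling added 0.33 on the log2 scale. Equal sums multiplied the ebastine values by 1.001, which is nearly no change. The widest range was that of PHGR1, from -1.84 with a pseudocount of 0.1 FPKM to -1.09 with one of 5 FPKM. S100P came closest to the limit, with 1.01 at a pseudocount of 5 FPKM. The counts over all listed genes depended more on scaling. All rescalings rest on listed genes alone, so the shifted counts below do not show which scaling is right. With the ebastine values centred on the median ratio of listed genes averaging 10 FPKM or more, a multiplication by 1.26 that adds 0.33 on the log2 scale, 115 of the 1768 genes were at least 2-fold higher and 25 lower, against 32 higher and 86 lower as deposited. After that centring the 7 ratios were -1.43 for PGC, -1.36 for PHGR1, -1.16 for SLPI, -1.11 for TM4SF1, -1.06 for NMU, 1.42 for S100P and 1.69 for PRSS1.

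**Figure D3:**
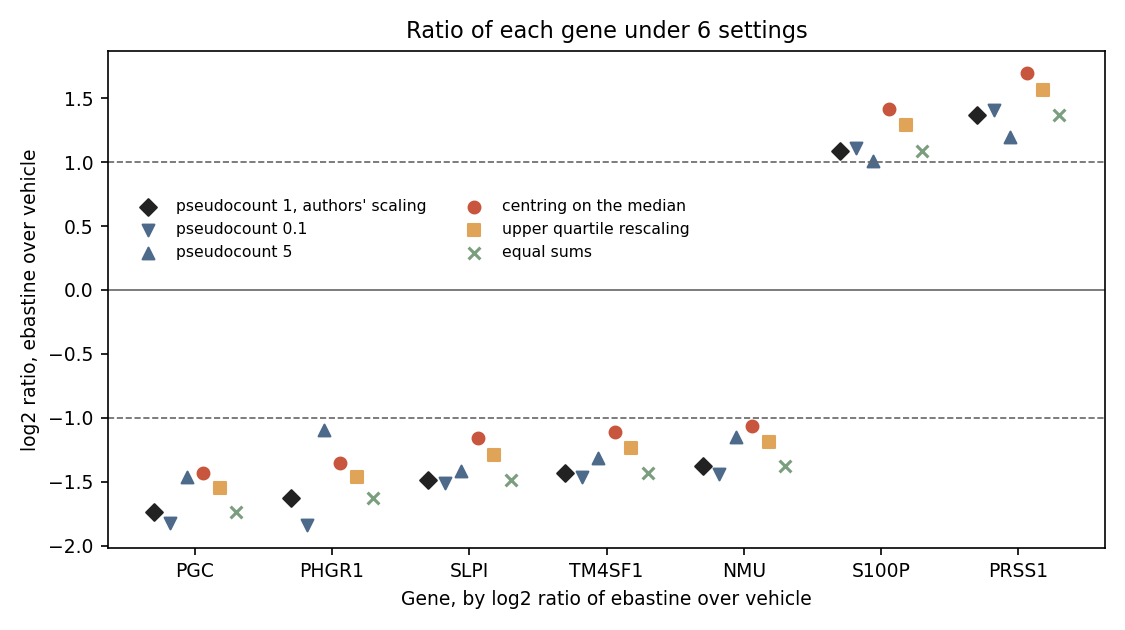
Log2 ratio of ebastine over vehicle for each gene under 6 settings: the values as reported, pseudocounts of 0.1 and 5 FPKM, and 3 rescalings of the ebastine library, with dashed lines at a 2-fold difference. All points of PGC, PHGR1, SLPI, TM4SF1 and NMU lie below -1, and all points of S100P and PRSS1 lie above 1, the closest being S100P at 1.01.

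Relatives of each gene were taken from lists by family, with the 7 genes left out of every count. The lists are partial, so listed genes of the same families can be missing from them. Splits and medians below describe the lists, not whole families. They include listed genes that averaged under 1 FPKM. Being listed means a p-value under 0.05 in the authors' deposited table, and 44.5% of all listed genes were higher with ebastine. The median log2 ratio of the 1768 listed genes averaging 1 FPKM or more was -0.32. How many of a list's genes the authors tested is unknown, so the share of a list that was listed cannot be compared directly with 14.2%.

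Of 30 other secreted and membrane serine proteases 9 were listed. With ebastine 4 of them were higher and 5 lower, and their median log2 ratio was -0.33. After centring TMPRSS2 turned to 0.008, giving 5 higher and 4 lower. The lower ones were mostly kallikreins, the secreted proteases of seminal fluid. KLK2 stood at 272 FPKM with ebastine and 465 FPKM with vehicle, and KLK15 at 7.19 FPKM with ebastine and 11.4 FPKM with vehicle, while KLK4 was higher, at 242 FPKM with ebastine and 162 FPKM with vehicle. PRSS23 had the highest ratio of these relatives, at 10.3 FPKM with ebastine and 4.48 FPKM with vehicle, with a q-value of 0.128 in the authors' deposited table. The secreted protease HTRA1 stood at 8.02 FPKM with ebastine and 4.14 FPKM with vehicle. The membrane-anchored protease prostasin (PRSS8) stood at 58.9 FPKM with ebastine and 35.1 FPKM with vehicle. PRSS1 was thus higher beside prostasin, HTRA1, PRSS23 and KLK4, and its ratio of 1.36 was above all of theirs. Outside the list, the serine proteases TMPRSS13 and CFD were higher with ebastine, at log2 ratios of 0.68 and 0.47. The kallikrein KLK14, also outside it, was lower, at -0.62.

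Most listed relatives of PGC and SLPI differed in the other direction. Of 11 other aspartic proteases 2 were listed, the lysosomal protease cathepsin D (CTSD) and the membrane protease BACE2, both higher with ebastine. BACE2 stood at 7.53 FPKM with ebastine and 3.61 FPKM with vehicle, and CTSD, whose printed locus spans 295 kb, at 166 FPKM with ebastine and 103 FPKM with vehicle. Of 27 other protease inhibitors 3 were listed. The serpin SERPINA3, an inhibitor of chymotrypsin-like proteases, stood at 2.21 FPKM with ebastine and 0.680 FPKM with vehicle. The inhibitor of hepatocyte growth factor activator SPINT1 stood at 75.2 FPKM with ebastine and 61.6 FPKM with vehicle. SERPINE2 stood at 4.05 FPKM with ebastine and 5.59 FPKM with vehicle. Neither SPINT1 nor SERPINE2 passed a q-value of 0.05 in the authors' deposited table. Of these 3 inhibitors SERPINE2 had the same direction as SLPI, and its ratio of -0.39 was smaller in size than the -1.49 of SLPI. Outside the list, the inhibitor TFPI was also lower with ebastine, at a log2 ratio of -0.69. The serpin SERPINI1 and the cystatin CSTB, also outside it, were higher, at 0.74 and 0.85.

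Listed relatives of S100P and TM4SF1 were few. S100A10, at 0.472 FPKM with ebastine and 1.42 FPKM with vehicle, was the listed gene among 20 others on the S100 list, and its mean was under 1 FPKM. Of 27 other L6 and tetraspanin genes 4 were listed. TM4SF18, an L6 gene 35.3 kb from TM4SF1, stood at 0.377 FPKM with ebastine and 0.691 FPKM with vehicle, the same direction as TM4SF1 at a far lower level. The tetraspanins CD63, CD82 and TSPAN7 were higher with ebastine, led by the late endosome and lysosome marker CD63 at 465 FPKM with ebastine and 315 FPKM with vehicle.

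Peptide and gland genes went both ways. Of 35 other neuropeptide and hormone genes 6 were listed. They split into 3 higher and 3 lower, and their median log2 ratio was 0.02. Outside this list, the hormone and peptide genes FGF21 (-0.63), APLN (-0.62), RLN2 (-0.60) and AMH (-0.51) were lower with ebastine, and AGT (0.47) was higher. PCSK1N, an inhibitor of the prohormone convertase PCSK1, stood at 29.1 FPKM with ebastine and 14.1 FPKM with vehicle. The secreted glycoprotein STC1 stood at 2.07 FPKM with ebastine and 4.72 FPKM with vehicle, and the cytokine GDF15 at 703 FPKM with ebastine and 1002 FPKM with vehicle. CALCA, the calcitonin gene, stood at 1.63 FPKM with ebastine and 0.860 FPKM with vehicle, with a q-value of 0.166 in the authors' deposited table. Of 38 other mucosal and gland genes 7 were listed. They split into 4 higher and 3 lower, and their median was 0.45. That median is the ratio of MUC20, at 0.872 FPKM with ebastine and 0.370 FPKM with vehicle. SPDEF, a transcription factor of secretory epithelium, stood at 73.3 FPKM with ebastine and 102.9 FPKM with vehicle. AGR2, a disulfide isomerase of mucus-secreting cells, stood at 16.6 FPKM with ebastine and 27.8 FPKM with vehicle. LCN2, which binds iron-carrying siderophores, differed the other way, at 11.6 FPKM with ebastine and 1.61 FPKM with vehicle, as did the gut galectin LGALS4 at 1.90 FPKM with ebastine and 0.648 FPKM with vehicle. GPNMB, counted among the mucosal and gland genes, had the highest ratio on these lists, 2.70. It is a membrane glycoprotein, so its place there can be questioned. The split and median of that list include it and would both be different without it. Outside the mucosal and gland list, the secreted-protein genes CRISP3 (-0.73) and ODAM (-0.69) were lower with ebastine, and ZG16B (0.46) was higher. NMU and PHGR1 had lower ratios than every listed gene of these 2 lists, the nearest being STC1 at -0.90 and AGR2 at -0.71. Nothing is read from this, since the same ratio chose NMU and PHGR1.

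**Figure D4:**
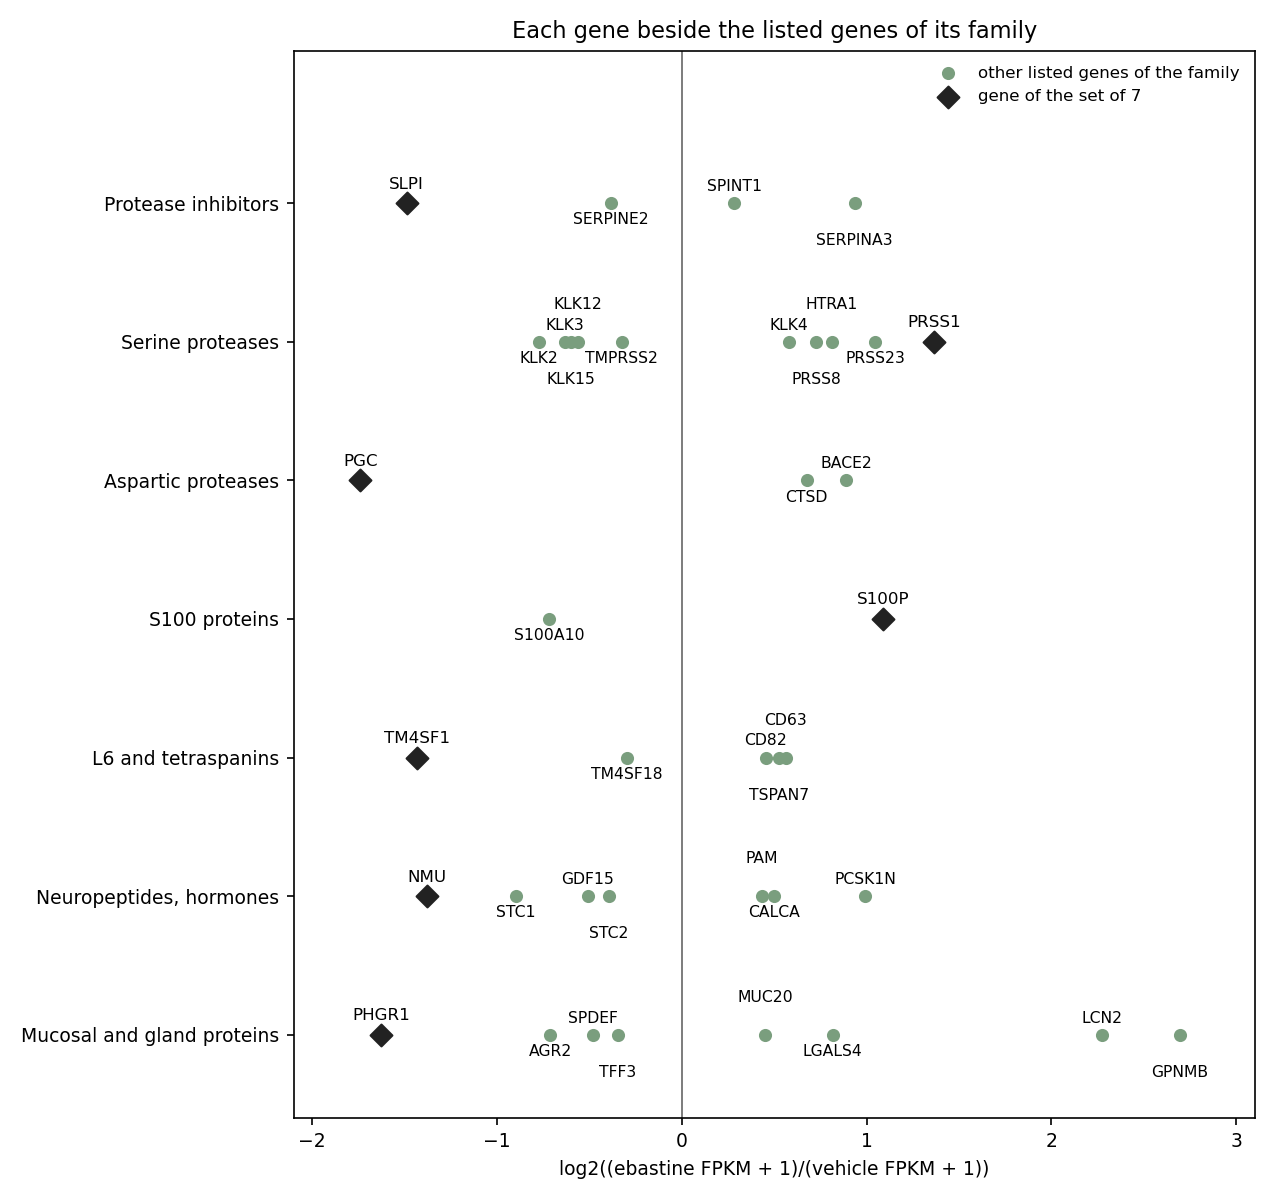
Log2 ratio of ebastine over vehicle for each of the 7 genes (diamonds) and for the other listed genes on its family list (circles), 1 row per list. PGC at -1.74 is the only point of its row left of 0. SLPI, TM4SF1, NMU and PHGR1 are the leftmost points of their rows, and PRSS1 and S100P are the rightmost of theirs. Nothing is read from these places, since the same ratio chose the 7 genes.

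Of 24 epithelial adhesion and keratin genes 3 were listed, and none passed a q-value of 0.05 in the authors' deposited table. The desmosome gene DSP stood at 39.8 FPKM with ebastine and 52.8 FPKM with vehicle. The epithelial transcription factor ELF3 stood at 7.78 FPKM with ebastine and 5.68 FPKM with vehicle. The related factor EHF stood at 194 FPKM with ebastine and 242 FPKM with vehicle, and its ratio turned to 0.014 after centring. The log2 ratios of DSP and ELF3 were -0.40 and 0.39 as deposited, and -0.07 and 0.70 after centring.

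Genes with the most similar pair of levels were found by distance over log2(FPKM + 1) in the 2 libraries. With only 2 libraries such likeness says no more than that both levels are close. For NMU the nearest was the mitotic kinesin KIF2C at 12.3 FPKM with ebastine and 32.3 FPKM with vehicle, followed by KIF20A and NEK2. For PGC they were KIF20A, NMU and KIF2C, for TM4SF1 the cell cycle genes CCNB2, TOP2A and CDC20, and for SLPI CCNB1, EPR-1 and NUSAP1. For PHGR1 they were PHLDA1, LOC728323 and ARHGAP28. For S100P the nearest was the sterol oxidase gene MSMO1 at 75.2 FPKM with ebastine and 35.3 FPKM with vehicle, followed by LARP6 and HIST3H2A. For PRSS1 it was HMGCS1, an enzyme of cholesterol synthesis, at 47.8 FPKM with ebastine and 19.9 FPKM with vehicle, followed by RPPH1 and SQLE.

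No listed gene had a locus overlapping that of any of the 7 genes, and few lay nearby. Within 500 kb of the printed locus there was no listed gene for NMU, 1 for PGC, 2 each for SLPI, TM4SF1 and PRSS1, 3 for S100P and 9 for PHGR1. The genes near PHGR1 went both ways, 5 higher and 4 lower. The closest, DISP2, 1.8 kb away, stood at 1.66 FPKM with ebastine and 1.21 FPKM with vehicle, while the mitotic checkpoint kinase gene BUB1B, 73.5 kb away, stood at 15.9 FPKM with ebastine and 32.5 FPKM with vehicle. The genes near PGC and SLPI were higher with ebastine, among them the syndecan SDC4, 70.7 kb from SLPI, at 40.03 FPKM with ebastine and 31.9 FPKM with vehicle. The calcium channel gene TRPV6, 68.7 kb from the printed PRSS1 locus, stood at 27.7 FPKM with ebastine and 20.9 FPKM with vehicle.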

How the data were processed

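Polyadenylated RNA of 2 C4-2 cultures was sequenced, 1 with ebastine and 1 with vehicle. The submitters' processing notes name TopHat2, Cuffdiff and hg19, with no version; the gene models, the strand setting and the handling of reads with several matches are not stated there. The authors' FPKM values were used as deposited. The authors' log2 fold change is the plain log2 of the FPKM ratio (within 1e-05). The deposited p-value and q-value come from 1 library per group; the number of genes tested was read from q × rank / p, which lay between 13701.2 and 13714.1. Locus starts were converted to count from 1.

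Ratios used a pseudocount of 1 FPKM. Counts at a fold limit and places in the order used genes averaging 1 FPKM or more. Counts and medians of the lists, and counts of nearby genes, used every listed gene. The genes, families and named relatives (up to 4 per list with the largest ratios, and the 3 nearest genes) were chosen with earlier results of these data known. KLK4, KLK12, KLK15, TMPRSS2, SPDEF, MUC20 and genes within 500 kb were named after their values were seen. So were the relatives outside the lists and the genes beside the ends of the order. Basal, stromal, leukocyte, gastric and pancreatic, and intestinal lists had 0 of 3, 1 of 5, 0 of 3, 0 of 6 and 1 of 4 genes listed. The calculation of ratios, counts and centring gave back known changes put, without noise, into the vehicle levels. That checks the arithmetic, not whether the centring suits these data. Promoters are RefSeq (GRCh38.p14), from 250 bases before to 50 after the start; transcripts are GENCODE release 29. Tools were Python 3.11.15, numpy 2.4.6, pandas 2.3.3 and matplotlib 3.10.9.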

Additional observations from a re-analysis of the deposited data

How the results depend on the processing

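Under pseudocounts of 0.1 and 5 FPKM, centring on the median, upper quartile rescaling and equal sums, the 7 genes kept their side of the 2-fold limit. Their direction also stayed, but none of these settings could have turned it. The log2 ratio ran from -1.82 to -1.43 for PGC, -1.51 to -1.16 for SLPI, -1.44 to -1.06 for NMU, -1.84 to -1.09 for PHGR1, -1.47 to -1.11 for TM4SF1, 1.01 to 1.42 for S100P and 1.20 to 1.69 for PRSS1. The count of listed genes at least 2-fold higher, 32 as reported, became 56 and 12 with pseudocounts of 0.1 and 5 FPKM, 115 after centring, 74 after upper quartile rescaling, 21 with a minimum mean of 5 FPKM and 171 at a limit of 1.5-fold. The count at least 2-fold lower, 86 as reported, became 126 and 30 with pseudocounts of 0.1 and 5 FPKM. It was 25 after centring, 45 after upper quartile rescaling, 73 with a minimum mean of 5 FPKM and 328 at 1.5-fold. Limiting the genes to those past a q-value of 0.05 in the authors' deposited table, and the search for TATAAA near the start, were chosen after seeing the data; the first left 24 higher and 78 lower. Rescalings were computed on the table already filtered by the authors' p-value, so they cannot measure a difference in library scale. With 1 library per group no replicate could be left out, and the depth is unknown.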
